A study of Mus musculus with 2 samples.

Results

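The genes described here encode the enzymes that cut the extracellular matrix and shed cell surface proteins, together with their inhibitors: matrix metalloproteinases (MMPs), the membrane-bound ADAMs, the secreted ADAMTS proteases, the related ADAMTSL proteins, tissue inhibitors of metalloproteinases (TIMPs) and the HTRA serine proteases. They were selected by gene name alone, as all probes of the array whose symbol starts with Mmp, Adam, Adamts or Adamtsl followed by a number, or is that of a numbered Timp gene or of Htra1 to Htra4. This gave 130 of 39429 probes and 88 of 29924 genes, of which 23 were MMP, 33 ADAM, 19 ADAMTS, 5 ADAMTSL, 4 TIMP and 4 HTRA genes. Ureters were dissected from wildtype NMRI mouse embryos of undetermined sex at E12.5 and cultured on membranes for 18 h, in a medium used without serum for the arrays. BIO cultures received 10 µM BIO, an inhibitor of the kinase GSK3 that activates canonical WNT signaling, and control cultures received the solvent DMSO at 2:1000. RNA of pooled ureters from each condition was hybridised on 2-colour Agilent arrays, with BIO in the red channel on the array of replicate 1 and in the green channel on that of replicate 2. All ratios below are BIO over control with the exchange of dyes taken into account, and n = 2 arrays throughout. An explanted ureter holds epithelium, mesenchyme, vessels and blood cells, and the whole organ was measured.

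MMPs are zinc enzymes that degrade collagens and other matrix components, and are secreted as inactive precursors or anchored in the membrane. ADAMs release growth factors, receptors and adhesion molecules from the cell surface, and some of them have lost the catalytic zinc site. ADAMTS proteases cleave proteoglycans such as versican or remove the N-terminal propeptides of collagens, ADAMTSL proteins lack a protease domain and bind matrix fibrils, TIMPs block the active site of metalloproteinases, and HTRA proteases are serine enzymes of the secretory route and of mitochondria. In the embryonic ureter these proteins act in a matrix that the mesenchyme lays down around a simple epithelial tube.

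With BIO, the serine protease gene Htra1 rose 6.61-fold, and 28 other genes of these families fell. The largest falls were those of Mmp12, which encodes the elastase of macrophages, Adamtsl4, which encodes a fibrillin-binding matrix protein, the inhibitor gene Timp3 and the sheddase gene Adam19. Each gene was read by 60-base probes. The start of the probe is shown for the genes whose mean ratio changed at least 2-fold. This was done because in Mmp12 and Adam19 a second probe gave no such value. The other probes of Adamtsl1, not printed, also fell by less than 2-fold (log2 -0.66 and -0.70). Each line gives the first 30 bases as the array file lists them, after the position of the whole probe in the mouse build mm9; the strand is not given.
Htra1, chr7:138129081-138129140: ttctgagatgaccaaaaatgcctcttagga
Htra4, chr8:26136015-26136074: gtttctgacagtcacacctgaaataatcaa
Mmp12, brighter probe, chr9:7352935-7352994: gggctgcagcattccaataatccaaagtca
Mmp12, dim probe, chr9:7360373-7360432: ctgactcaatacctaaaatattttcataac
Timp3, chr10:85811696-85811755: atagtgacttttggggatagatctgtctgg
Adamtsl4, chr3:95480135-95480194: ccacttcacactgaaaatgatgcccacccc
Adamtsl1, brightest probe, chr4:86074196-86074255: ctgctggataatgcggaagaagacacttcc
Adam19, brighter probe, chr11:45960740-45960799: catctatgcaaaatacttgaatgggccatg
Adam19, dim probe, chr11:45874717-45874776: ttgatagaactggggttcaggtccaagcat
The brighter Mmp12 probe carried the fall, whereas the dim probe was not well above background in either channel on both arrays and was not tested. The brighter Adam19 probe lies at higher coordinates of chromosome 11, and the dim probe had a log2 ratio of -0.26 in replicate 1 and -0.11 in replicate 2, with an adjusted p of 0.27 in limma.

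A probe was tested when its signal exceeded background in more than 0.5 of its spots for the same condition, control or BIO, in replicate 1 as well as in replicate 2, and a gene was represented by its brightest such probe. By this rule 64 of the 88 genes (72.7%) were tested, against 72.2% of all genes of the array. The representative probes of 58 genes were well above background in all 4 channels, and no member spot was saturated. All 4 HTRA, all 4 TIMP and all 5 ADAMTSL genes were tested, together with 18 of 19 ADAMTS, 20 of 33 ADAM and 13 of 23 MMP genes. The 10 MMP genes without a tested probe were the collagenases Mmp1a, Mmp1b and Mmp13, the stromelysins Mmp3 and Mmp10, the matrilysin Mmp7, and Mmp20, Mmp21, Mmp27 and Mmp28. The 13 ADAM genes without a tested probe were Adam1b, Adam2, Adam3, Adam6a, Adam18, Adam20, Adam24, Adam25, Adam26a, Adam28, Adam29, Adam30 and Adam39, most of which are known from the testis. Adamts13, which encodes the protease of von Willebrand factor, was the remaining gene. Of these 24 genes, 14 had no probe above background in more than 0.5 of its spots in any channel. The other 10 had one in the green channel of at least 1 array and none in a red channel, so that their ratios were not tested.

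Of the 64 tested genes, 1 rose (1.56%), 28 fell (43.8%) and 35 were not called at an adjusted p below 0.05 in limma. Over all 21598 tested genes, 9.14% rose and 14.8% fell. The median log2 ratio of the members was -0.27, with -0.28 in replicate 1 and -0.21 in replicate 2, whereas it was -0.01 over all tested genes. In numbers of probes, 1 rose and 36 fell of 93, against 8.95% and 14.3% of all tested probes. The sign was the same on both arrays for 55 of the 64 members (85.9%) and for 72.9% of all tested genes. It was the same for each of the 29 called members, but the calls rest on these same 2 arrays, so this is no separate support. The 2 arrays of the called members differed by a median of 0.15 on the log2 scale, which was not compared with the other members. Most falls were moderate. The mean log2 ratio was -1 or lower in 6 of the 28 fallen genes, between -1 and -0.5 in 18, and above -0.5 in 4. At an unadjusted p below 0.05, limma counted 2 risen and 32 fallen members, against 15.2% risen and 21.5% fallen of all tested genes.

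**Figure D1:**
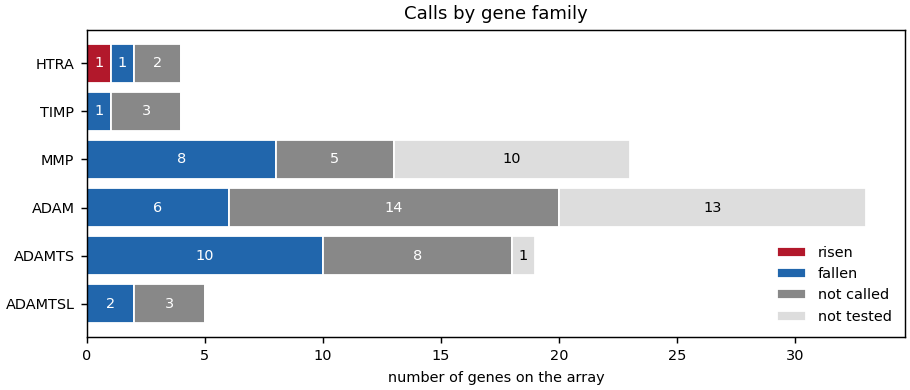
Number of genes of each family on the array that rose, fell, were tested but not called, or were not tested; the numbers are printed in the bars. The single risen gene lies in the HTRA family, and 10 of the 18 tested ADAMTS genes and 8 of the 13 tested MMP genes fell.

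**Figure D2:**
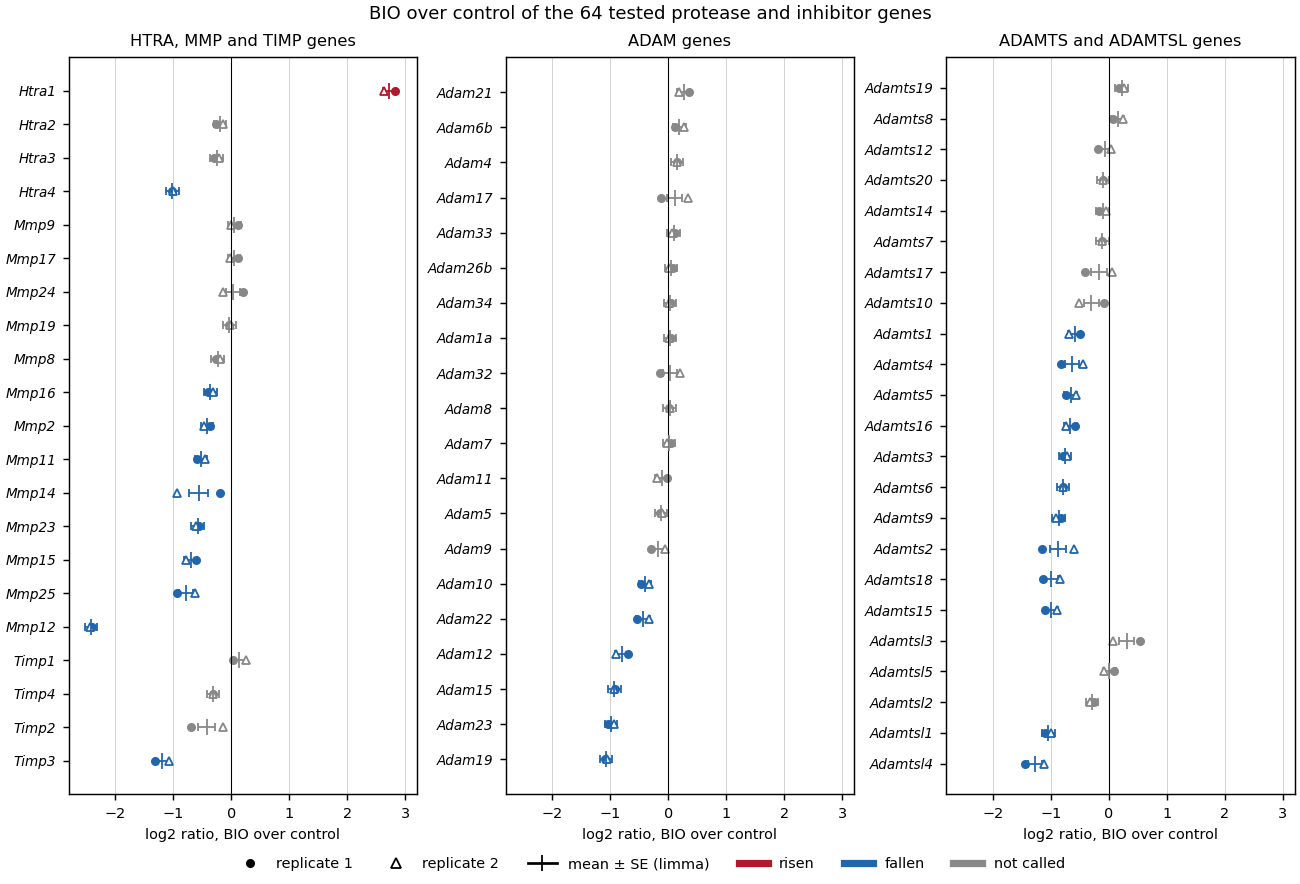
Log2 ratio of BIO over control for the 64 tested genes, with replicate 1 as a filled circle, replicate 2 as an open triangle, and the mean with its limma standard error as a cross bar. Htra1 lies alone at the right, with 2.82 and 2.63, and Mmp12 alone at the left, with -2.39 and -2.44.

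The HTRA family held the only rise and a fall. Htra1 encodes a secreted serine protease that cleaves fibronectin and proteoglycans. Its processed signal was 319.5 in control and 2476 in BIO ureters in replicate 1. In replicate 2 it was 376 in control and 2571 in BIO ureters. Both BIO signals lay far above both control signals, although the dyes were exchanged. A separation of the signals as such was also seen for Htra3, which was not called, and was not counted over all genes. The log2 ratio was 2.82 and 2.63, with a mean of 2.72 ± 0.11 (SE, adjusted p = 2.64e-05 in limma). Its relative Htra4, also secreted, was read at 196 in control and 93.5 in BIO ureters in replicate 1, and at 237 and 107 in replicate 2. This is a 2.02-fold fall with nearly the same size on both arrays (log2 -1.02 and -1.01, adjusted p = 0.000456 in limma). Htra2, which encodes a mitochondrial protease, had log2 ratios of -0.26 and -0.14 and was not called (adjusted p = 0.24). Htra3, which encodes another secreted member, had log2 ratios of -0.29 and -0.22 and was not called either (adjusted p = 0.13). The family split by member, and its median of -0.23 describes none of the called genes.

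Among the TIMP genes, Timp3 fell. Its product is bound to the matrix and inhibits MMPs as well as several ADAM and ADAMTS proteases. Its signal was 8267 in control and 3339 in BIO ureters in replicate 1, and 9714 and 4581 in replicate 2. Both control signals exceeded both BIO signals, which also held for Timp2 and Timp4, neither of them called. The mean log2 ratio of Timp3 was -1.20 ± 0.12 (SE, adjusted p = 0.000314 in limma), a 2.29-fold fall. Timp2, whose product inhibits MMP2 and also takes part in its activation, had log2 ratios of -0.70 and -0.15 on its brighter probe (adjusted p = 0.069) and -0.19 and -0.41 on the other (adjusted p = 0.096). Both probes were below 0 on both arrays, and neither was called. Timp4 had a log2 ratio of -0.32 on each array (adjusted p = 0.067), and the broad inhibitor gene Timp1 had 0.03 and 0.25 (adjusted p = 0.439). No TIMP gene rose. With the mean of all probes of a gene, 2 TIMP genes were called as fallen, against 1 in the main analysis.

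Of the 13 tested MMP genes, 8 fell and none rose, with a median log2 ratio of -0.42. The fall of Mmp12 stood apart in size. Its signal was 216 in control and 24.1 in BIO ureters in replicate 1, and 293 and 32.4 in replicate 2. The ratios of the arrays were nearly equal, and the mean log2 ratio was -2.42 ± 0.11 (SE, adjusted p = 3.08e-05 in limma), a 5.34-fold fall. The log2 ratio was -3.18 with Feature Extraction's processed signals and -2.76 with an offset of 16, since an offset (50 here) added to both channels shrinks the ratio of a dim probe.

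The membrane-type MMPs, which act at the cell surface, were all tested, and 4 of 6 fell. Mmp25, whose product is held by a lipid anchor, was dim. It read 32.6 in control and 5.03 in BIO ureters in replicate 1, and 30.4 and 10.6 in replicate 2. The BIO channel was well above background on 1 array only (mean log2 ratio -0.79 ± 0.12, adjusted p = 0.00272 in limma). Its size depended on the handling of dim signals, with a log2 ratio of -2.13 for processed signals and -1.14 for an offset of 16. Mmp15 read 334 in control and 231 in BIO ureters in replicate 1, and 393 and 227 in replicate 2 (mean log2 ratio -0.70, adjusted p = 0.00336). Its 2 control signals lay above its 2 BIO signals, which also held for Mmp14, whose call was lost under several alternatives. Mmp14 encodes the membrane-type enzyme that activates proMMP2, and its arrays differed most among all tested members, with log2 ratios of -0.19 in replicate 1 and -0.93 in replicate 2 (mean -0.56 ± 0.17, adjusted p = 0.0456). It kept no call with processed signals (adjusted p = 0.146), median centering (0.0698), an offset of 16 (0.0795) or without the filter on dim probes (0.0986). With median centering limma gave every called member the same SE of 0.216, so those p-values do not use a gene's own spread. Mmp16 fell by 0.36 on the log2 scale, with an adjusted p of 0.0464 that rose to 0.119 with processed signals, 0.125 with median centering and 0.0653 with an offset of 16. The lipid-anchored Mmp17 and the neurally expressed Mmp24 were not called, with mean log2 ratios of 0.05 and 0.03.

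Mmp23, an MMP without the usual hemopexin domain, read 466 in control and 335 in BIO ureters in replicate 1, and 503 and 329 in replicate 2 (mean log2 ratio -0.58, adjusted p = 0.00664 in limma). Stromelysin-3, encoded by Mmp11, read 14390 and 10372 in replicate 1, and 14607 and 10931 in replicate 2, and both of its probes fell (log2 -0.52 and -0.50). Its adjusted p was 0.0113, against 0.0606 with processed signals and 0.235 with median centering. The gelatinase gene Mmp2 read 12348 in control and 10086 in BIO ureters in replicate 1, and 13359 and 9592 in replicate 2. Control exceeded BIO on both arrays, by little (mean log2 ratio -0.42, adjusted p = 0.0273, against 0.0934 with processed signals and 0.413 with median centering). The other gelatinase gene, Mmp9, was dim, at 30.6 in control and 37.4 in BIO ureters in replicate 1 and 42.7 in both conditions in replicate 2, and was not called. The collagenase gene Mmp8 (mean log2 ratio -0.23) and Mmp19 (-0.03) were not called. Mmp8 was close to background and was called as fallen with processed signals (-0.96).

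**Figure D3:**
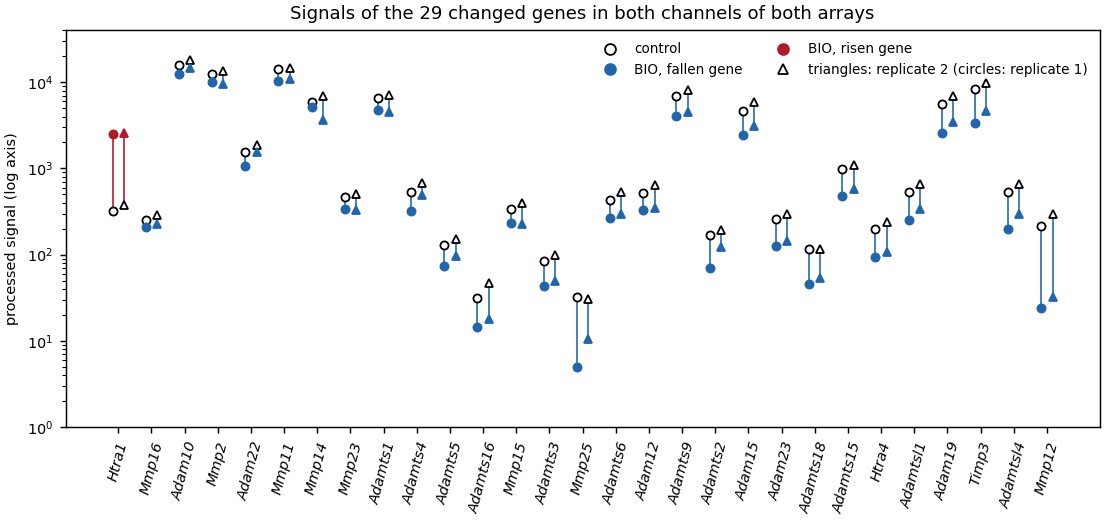
Processed signal, on a log axis, of the 29 changed genes in the control channel (open) and the BIO channel (filled) of replicate 1 (circles) and replicate 2 (triangles), ordered by mean log2 ratio. Levels of different probes cannot be compared, but within each gene and array the line runs from control to BIO, upwards for Htra1 and downwards for the other 28.

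Of the 20 tested ADAM genes, 6 fell and none rose, and their median log2 ratio was 0.02, with -0.09 under median centering and -0.05 when all 4 channels had to be above background. The falls lay in the sheddases and in the ADAMs without a catalytic zinc site. Adam19, whose product releases neuregulins, read 5611 in control and 2592 in BIO ureters in replicate 1, and 6950 and 3458 in replicate 2. Its log2 ratios of -1.09 and -1.06 gave an adjusted p of 0.000354 in limma. Adam15 encodes a sheddase with an integrin-binding motif, and read 4588 in control and 2457 in BIO ureters in replicate 1, and 5853 and 3104 in replicate 2 (mean log2 ratio -0.93, adjusted p = 0.000703). In both genes the BIO signals lay below both control signals, which also held for Adam10, whose call was lost under several alternatives. Adam12, whose product cleaves IGF-binding proteins, had log2 ratios of -0.80 on its brightest probe and -0.57 on its dimmest, both called. The probe of intermediate brightness was not called (log2 -0.32, adjusted p = 0.069 in limma). Adam10 encodes the sheddase of Notch receptors and E-cadherin and fell by 0.40 on the log2 scale. Its adjusted p was 0.0332, against 0.0995 with processed signals, 0.558 with median centering and 0.0552 with an offset of 16. Adam17, which encodes the sheddase of TNF and of EGF receptor ligands, had opposite signs on the arrays, with -0.13 and 0.34, and was not called. Adam8, Adam9 and Adam33 were not called, with mean log2 ratios of 0.02, -0.18 and 0.09.

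Adam22 and Adam23 encode receptors for LGI proteins that have lost the zinc site. Adam23 read 258 in control and 127 in BIO ureters in replicate 1, and 292 and 142 in replicate 2 (mean log2 ratio -0.99, adjusted p = 0.000558 in limma), and a second probe gave -1.06. A dimmer probe of Adam23 was detected in control ureters on both arrays and in BIO ureters on neither, and was not called (adjusted p = 0.305). Adam22 read 1557 and 1065 in replicate 1, and 1884 and 1549 in replicate 2. Its mean log2 ratio of -0.44 had an adjusted p of 0.0267, against 0.0917 with processed signals, 0.0994 with median centering and 0.0834 as the mean of its 3 tested probes (-0.27). Adam11, another relative of this kind, was not called (-0.11). The 7 tested genes that belong to neither group, such as Adam1a, Adam4 and Adam21, had mean log2 ratios between -0.13 and 0.27 and none was called.

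The ADAMTS genes had a median log2 ratio of -0.61, with 10 of 18 tested genes fallen and none risen. With the mean of all probes of a gene the median was -0.38. Of the 7 proteoglycanase genes, 5 fell. Adamts15 read 973 in control and 476 in BIO ureters in replicate 1, and 1093 and 579 in replicate 2 (mean log2 ratio -0.99, adjusted p = 0.000636 in limma). Adamts9, a bright probe, read 6859 and 4023 in replicate 1, and 8207 and 4470 in replicate 2 (mean log2 ratio -0.86, adjusted p = 0.00103). In both, control and BIO signals did not overlap. This also held for genes whose calls were lost under several alternatives, such as Mmp14 and Adam10, and it was not counted over all genes. Adamts5 (mean log2 ratio -0.65), Adamts4 (-0.64) and Adamts1 (-0.59) fell, with adjusted p-values of 0.00451, 0.0087 and 0.00712. With median centering that of Adamts1 was 0.0506. Adamts8 and Adamts20 were not called, with mean log2 ratios of 0.16 and -0.10.

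Both changed procollagen N-proteinase genes fell. Adamts2 read 170 in control and 69.9 in BIO ureters in replicate 1, and 195 and 123 in replicate 2, so that the size of its fall differed between the arrays (log2 -1.16 and -0.60, adjusted p = 0.0039 in limma). Adamts3, whose product also processes VEGF-C, read 85.1 and 43.1 in replicate 1, and 98.4 and 49.9 in replicate 2 (mean log2 ratio -0.76, adjusted p = 0.00193). The dimmer probes of both genes were not called, at -0.13 and -0.07. Adamts14, the other member of this group, had a mean log2 ratio of -0.11 and was not called. Among the remaining ADAMTS genes, Adamts18 read 118 in control on both arrays, and 45.6 and 53 in BIO ureters (mean log2 ratio -0.99, adjusted p = 0.000845). Adamts6 read 431 and 265 in replicate 1, and 527 and 294 in replicate 2 (mean log2 ratio -0.79, adjusted p = 0.00155). Adamts16 fell on a dim probe whose BIO channel was well above background on 1 array only, with a mean log2 ratio of -0.66, against -1.30 with processed signals and -0.89 with an offset of 16. Adamts7, Adamts10, Adamts12, Adamts17 and Adamts19 were not called, and their mean log2 ratios ranged from -0.30 to 0.22.

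In the ADAMTSL family 2 of 5 genes fell. Adamtsl4 read 535 in control and 201 in BIO ureters in replicate 1, and 655 and 293 in replicate 2, a 2.42-fold fall (mean log2 ratio -1.27 ± 0.12, adjusted p = 0.000295 in limma). Adamtsl1 read 533 and 254 in replicate 1, and 667 and 340 in replicate 2 (mean log2 ratio -1.04, adjusted p = 0.000422), and all 3 of its probes fell, the others with log2 ratios of -0.66 and -0.70. The BIO signals of both genes lay below both control signals, which also held for Adamtsl2, a gene without a call. Adamtsl2, Adamtsl3 and Adamtsl5 were not called. Adamtsl3 was dim and had log2 ratios of 0.53 and 0.08 (adjusted p = 0.143).

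**Figure D4:**
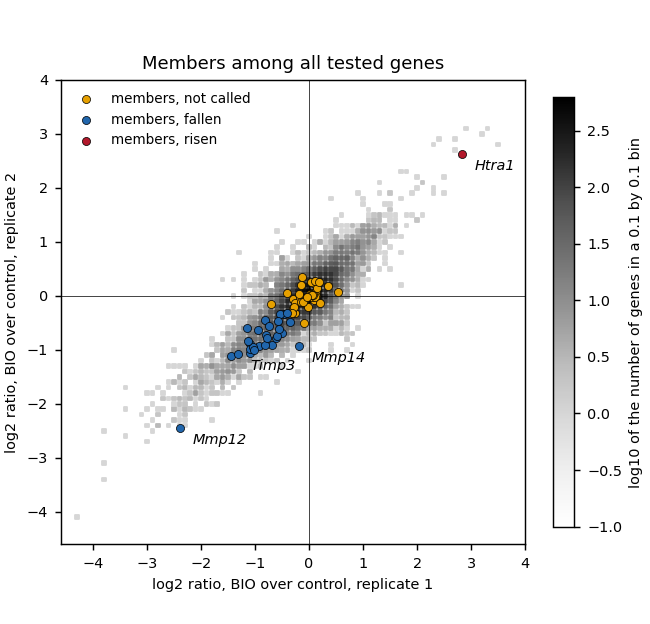
Log2 ratio of BIO over control in replicate 1 against that in replicate 2, for the 64 tested members (coloured points) over all 21598 tested genes (grey squares, shaded by the log10 number of genes in each bin). Called members lie near the diagonal, since the test favours genes with a small spread between the arrays. Mmp14 (-0.19 and -0.93) is the member farthest from it.

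Different probes of a gene were then compared. Of the 36 members with more than 1 probe, 25 had more than 1 tested probe, and none of these had calls in opposite directions. In 7 genes (Adam12, Adam19, Adam22, Adam23, Adamts2, Adamts3 and Adamts4) some but not all tested probes were called, and 8 of the 16 dimmer tested probes of called genes were called. The spots of a probe varied little, with a median SD of 0.09 in replicate 1 and 0.08 in replicate 2 on the log2 scale. A rule of intensity and fold change, modelled on cut-offs that the study used for other arrays, was applied as well. It asked for at least 2-fold change in the same direction and, as chosen here, a signal of at least 100 in the brighter channel on each array. By this rule Htra1 was higher, and Mmp12, Adamtsl4, Timp3, Adam19, Adam23, Adamts18 and Htra4 were lower. The rule chose 0.752% of 29913 genes as higher and 1.47% as lower, and it involves no test.

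Several of these genes are neighbours in the genome (mm9, joined where probes lay within 500000 bases), so their changes could be compared by position. The largest group lies on chromosome 9 between 7282762 and 7697700 and holds 10 MMP genes, Mmp1a, Mmp1b, Mmp3, Mmp7, Mmp8, Mmp10, Mmp12, Mmp13, Mmp20 and Mmp27. Only Mmp8 and Mmp12 were tested there, and only Mmp12 was called. Htra4 lies at the end of a group of 6 genes on chromosome 8 (25712756 to 26136074), in which Adam5, Adam9 and Adam32 were tested and not called while Htra4 fell. Adamts1 and Adamts5 are neighbours on chromosome 16 and both fell. Adamts15 fell and its neighbour on chromosome 9, Adamts8, did not pass the test.

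Promoters were examined because BIO acts on WNT signaling, whose TCF/LEF factors bind DNA, and because AP-1 sites are a known feature of MMP promoters. RefSeq promoters (GRCm38.p6, from 250 bases before to 50 bases after the start) were matched by symbol for 55 of the 88 genes, giving 60 promoters, and for 18 of the 28 fallen genes. The searched motifs were CTTTGAA or CTTTGAT for TCF/LEF and TGAGTCA or TGACTCA for AP-1, on both strands. The AP-1 words are each other's reverse complement, and the ends of the TCF/LEF and AP-1 words can share bases. The TCF/LEF letters were present in 5 of 60 member promoters (8.33%) and in 8.65% of all 32851 promoters. They were found in 0 of 22 promoters of fallen genes and not in that of Htra1, and all 5 lay in members that were not tested. The AP-1 letters were present in 10 member promoters (16.7%), against 5.2% of all promoters. Of the 10 genes in the MMP group on chromosome 9, 7 held such a match, against 3 of the other 45 genes. Of the fallen genes, only Mmp12 and Adam19 held it. The 250 bases before the start are printed for Htra1, the gene that rose, and for the Mmp12 promoter with an AP-1 match, which is in capitals.
Htra1, chr7:130935953-130936202, plus strand: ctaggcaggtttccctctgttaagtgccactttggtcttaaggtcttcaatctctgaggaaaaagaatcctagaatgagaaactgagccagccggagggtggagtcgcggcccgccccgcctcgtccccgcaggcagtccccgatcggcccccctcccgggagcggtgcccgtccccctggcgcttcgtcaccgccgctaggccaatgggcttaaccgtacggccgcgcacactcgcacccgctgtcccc
Mmp12, chr9:7347124-7347373, plus strand: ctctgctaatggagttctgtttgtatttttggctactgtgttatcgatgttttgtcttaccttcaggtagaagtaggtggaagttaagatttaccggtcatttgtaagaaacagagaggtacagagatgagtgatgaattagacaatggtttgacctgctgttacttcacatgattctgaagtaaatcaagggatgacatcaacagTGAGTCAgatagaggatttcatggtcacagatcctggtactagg
Mmp12 has a second promoter entry upstream, without a match to either motif. A match describes letters only, and these windows leave out distal elements.

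Other genes that control matrix breakdown were taken from fixed lists. In the plasminogen system, which activates several MMPs, 5 of 8 genes were tested, 2 fell and 1 rose. Plau, the gene of urokinase, read 331 in control and 118 in BIO ureters in replicate 1, and 435 and 135 in replicate 2 (mean log2 ratio -1.48, adjusted p = 0.000109 in limma). Its receptor gene Plaur (-0.70) fell as well, whereas the protease inhibitor gene Serpine2 rose by 0.37 on the log2 scale. The procollagen C-proteinase group, which removes the other propeptide of collagens, contained rises. Tll1, which encodes a tolloid protease, rose by 1.22 and the enhancer gene Pcolce2 by 1.13, while the enhancer gene Pcolce fell (-0.95) and Bmp1 was not called. Of 10 genes for lysosomal cathepsins and their inhibitor cystatin C, 4 fell (Ctsk, Ctsh, Ctsd and Cst3) and none rose, with a median of -0.37.

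At the cell surface, 3 of 10 regulators of MMPs and ADAMs fell. These were Tspan17 (-0.98), whose tetraspanin product escorts ADAM10, Furin (-0.69), the convertase that removes the prodomains of many ADAM and ADAMTS proteases, and Rhbdf1 (-0.43), a partner of ADAM17. Reck, which encodes a membrane-anchored MMP inhibitor, was not called (-0.22). Of 15 tested matrix substrates 8 fell, with a median of -0.44, including Thbs1 (-1.25), Col3a1 (-0.91), the proteoglycan gene Bgn (-0.87) and Vcan, the versican gene (-0.72). Fn1 (-0.12), Fbn1 (-0.28) and Eln (0.05) were not called. Over these lists and the 9 WNT targets named below, 12 of 53 tested genes rose and 18 fell, and with median centering 9 fell. The rises were the 9 WNT targets, Serpine2, Tll1 and Pcolce2. Over all tested genes 9.14% rose and 14.8% fell, and with median centering 8.99% fell.

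**Figure D5:**
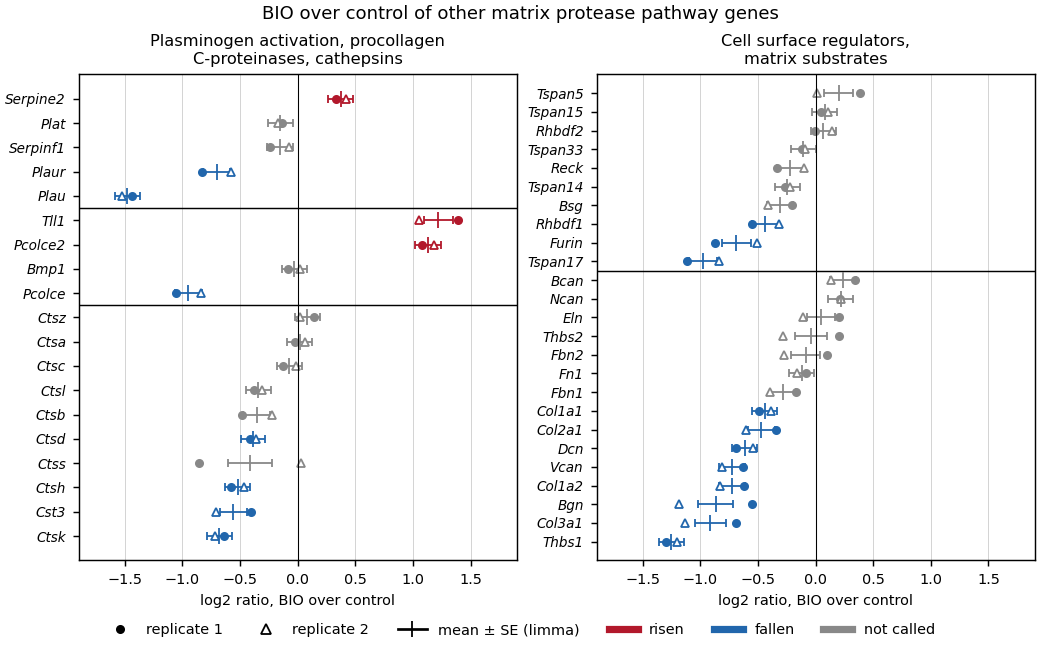
Log2 ratio of BIO over control for the tested genes of the other lists, drawn as for the protease genes (filled circle replicate 1, open triangle replicate 2, mean with limma standard error), with lines between lists. The WNT targets are not drawn. Of the genes drawn, Plau (-1.48) and Thbs1 (-1.25) have the largest falls, and Tll1 (1.22) and Pcolce2 (1.13) the largest rises.

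The 9 WNT target genes examined as a check of the treatment, among them Axin2, Sp5 and Lgr5, all rose, with log2 ratios from 0.53 to 2.80. Markers of the cell types of the organ also moved. All 8 endothelial markers fell, with a median log2 ratio of -2.07, and their summed signal was 28597 in control and 5317 in BIO ureters in replicate 1, and 34430 and 9919 in replicate 2. Of 7 macrophage markers, 4 fell, and their sum was 6029 and 4127 in replicate 1, and 6895 and 5843 in replicate 2. Cx3cr1 (-1.75), Aif1 (-0.79), Ptprc (-0.78) and Csf1r (-0.64) fell, while Mrc1 (0.08), Adgre1 (-0.04) and Cd68 (-0.12) were not called. Mmp12, which is known from macrophages, had a log2 ratio of -2.42, below that of each of these markers. Of the mesenchymal markers 7 of 8 fell, with a sum of 203000 and 120520 in replicate 1, and 219090 and 135230 in replicate 2. Tbx18 (-0.22) was not called. The bright genes Col1a1 and Col3a1, also listed as matrix substrates, weigh most in this sum. Of the epithelial markers 7 of 8 fell, with a sum of 83566 and 39355 in replicate 1, and 83882 and 48112 in replicate 2. Epcam (0.02) was not called, and the bright genes Krt8 and Krt18 weigh most in this sum. Erythroid markers fell in 2 of 5, with a sum of 177600 and 130640 in replicate 1, and 202870 and 108030 in replicate 2. All markers passed the rule for testing, which the control channels alone can meet, so this does not show detection in BIO ureters. The epithelial marker Upk1b read 61.8 in control and 5.03 in BIO ureters in replicate 1, and 82.7 and 7.51 in replicate 2. Fewer cells of a type and less RNA per cell cannot be told apart in RNA of a whole organ, and the part of these cell types in the changes of the protease genes was not tested.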

How the data were processed

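Both arrays were 2-colour Agilent oligonucleotide arrays with 4 spots per probe. The deposited intensities are the raw spot and local background intensities and the processed signals, which the authors obtained with Agilent Feature Extraction 10.7.3.1; per the file headers the processed signals are background-subtracted and dye-normalized. The deposited series table holds a score per probe, a signed fold change rounded to 1 decimal, whose direction followed the scanner ratios (Pearson's r over 39413 probes 0.679 and 0.76; column medians 1) and whose centring is not stated. Control spots and outlier spots (3.83% and 3.54%) were left out. In R 4.3.3 with limma 3.58.1, mean intensities were corrected with normexp (offset 50) and loess within each array, spots of a probe were averaged, and lmFit and eBayes gave a two-sided test of the log2 ratios of 28824 probes against 0 (Benjamini-Hochberg over all of these, threshold 0.05; prior df 7.14, median SE 0.11). A gene is the name in the file, read by its brightest tested probe. Between 70.1% and 80.9% of spots were well above background in a channel. The number of arrays limits precision, and the arrays are the only replicates. The p-values rest on the spread between 2 arrays, which eBayes moved towards a prior spread taken from all tested probes. With a prior df of 7.14 this prior outweighs the spread of the gene itself. With the dyes exchanged, a dye effect cancels in the mean of the arrays and adds to the spread between them; a dye term leaves no residual degree of freedom and was not fitted. Both arrays lay on 1 slide.

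Processed signals are printed as levels; they were raised to a floor of 15 only for the 2-fold rule. Named genes are all called members. Full values are given for the largest changes of each subgroup and for HTRA and TIMP genes. The members, lists and promoter motifs were chosen with earlier results of these data known. An item of the plasminogen list is not reported here. The script was tested on simulated ratios. Alternatives were processed signals, median centering, an offset of 16, no filter or a stricter filter on dim probes, the mean of a gene's probes, the series table, other fold and intensity minimums, and each array alone.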

Additional observations from a re-analysis of the deposited data

How the results depend on the processing

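Among the called members, 201 values were recomputed with a test under the alternatives. None changed sign, 163 kept their call and 38 lost it, 20 of these with the series table, whose rounding to 1 decimal also limits its test. The genes that lost it there include Timp3 (adjusted p = 0.116 in limma), Adamtsl4 (0.126), Adamts15 (0.0805) and Adamts18 (0.0546). Htra1, Mmp12 and Adam19 kept it. With the series table, 3 members rose (Adam1a, Adamts19 and Htra1) and 10 fell, against 1 and 28. Adam1a (log2 0.14) and Adamts19 (0.26) each had the same rounded value on both arrays, which leaves almost no spread for the test. In the main analysis neither was called (0.03 and 0.22). Over all genes the series table called 8.94% risen and 6.11% fallen, so that 59.4% of calls were rises, against 38.3%. In the other lists with the WNT targets 6 rose and 5 fell, against 12 and 18. Fallen members numbered 23 with processed signals (9.61% of all genes fell), 21 with median centering (8.99%), 25 with an offset of 16 (13%), 27 of 88 without the filter (9.74%), 26 of 58 with all channels above background (14.9%) and 28 with the mean of probes (15.8%), with 1 risen in each. The members' median log2 ratio was -0.33 with processed signals, -0.33 with an offset of 16 and -0.10 without the filter on dim probes, which adds genes near background; the single arrays ranged from -0.28 to -0.21. With median centering 9 genes of the other lists fell. In that setting every called member had the same SE of 0.216, against a median SE of 0.11 in the main analysis. Its adjusted p-values thus differ by the error used and not only by the ratios. By the intensity and fold rule, 15 members were lower at 1.5-fold and 1 at 3-fold, against 7, and 7 to 10 on single arrays. The causes were not tested where no construction is named. Single arrays carry no test. The test on the ratio within each array is itself the paired analysis, and no further block could be fitted.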
